A study of Homo sapiens with 12 samples.

Results

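The genes described here are 40 genes of the unfolded protein response and of the ATF4 response, chosen by name. They were followed on 12 arrays of 3 head and neck cancer cell lines. A member was represented by a probe set whose only symbol is that gene, and where several existed the brightest of them over the 12 arrays was taken. This gave 39 of the 40 members, among 11963 genes represented in the same way. DNAJB11 had no such probe set. The members fall into an endoplasmic reticulum (ER) chaperone and quality control group, with 17 of 18 represented, and an ATF4 group, with 22 of 22. Of the 39, 37 passed the limit on dim signals (at least 2 arrays above a log2 value of 4.52), 17 in the ER group and 20 in the ATF4 group. CTH and VLDLR did not pass it, at 3.51 to 4.55 and 3.40 to 4.22 over the arrays, and were not tested.

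The lines are labelled Detroit, Fadu and OECM1. Fadu comes from a squamous carcinoma of the hypopharynx and OECM1 from one of the oral cavity, and the labels do not say which Detroit line was used. Each line is given as parent cells and as a subline of cells that had invaded through Matrigel, an extract of basement membrane, and each of the 6 groups has 2 arrays. No other treatment, genotype or time is named, and the labels do not say whether duplicates were separate cultures or whether a subline is a clone or a pool. The comparisons ask which transcripts differ between cells selected for invasion and their parents. Values are log2 RMA values of bulk RNA, so that more expressing cells and more RNA per cell cannot be told apart.

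Cells sense misfolded protein in the ER through the sensors IRE1, ATF6 and PERK. IRE1 splices the XBP1 transcript and ATF6 is cleaved to an active factor, and both raise ER chaperones, disulfide isomerases and degradation factors, partly through ER stress response elements in their promoters. PERK and the related kinases that sense amino acid shortage, haem shortage or double-stranded RNA phosphorylate the initiation factor eIF2, which slows translation while favouring that of ATF4. ATF4 then raises genes of amino acid supply, tRNA charging and feedback control.

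The promoters of both groups are shown because the groups are defined by these response pathways. RefSeq promoter sequences (GRCh38.p14, 250 bases before to 50 bases after the gene start) existed for 37 of the 40 members, 17 in the ER group and 20 in the ATF4 group. Both strands were searched for the ER stress response element ERSE (CCAAT, 9 bases of any kind, then CCACG), for ERSE-II (ATTGG, 1 base of any kind, then CCACG) and for TGATGNAA, the core of the C/EBP-ATF element bound by ATF4. No match overlapped a match of another motif in the members. A gene counted once if any of its promoter entries held the motif. ERSE was found for 7 of the 17 ER members (HSPA5, HSP90B1, PDIA6, CALR, CANX, CRELD2 and XBP1) and for 0 of the 20 ATF4 members, against 0.0916% of 27305 genes. ERSE-II was found for 3 ER members (SDF2L1, HYOU1 and HERPUD1) and for 0 of the ATF4 group, against 0.0696%. The TGATGNAA core was found for 6 members of the ATF4 group (ATF3, ASNS, CHAC1, CEBPG, AARS1 and GARS1) and for 1 of the ER group (HERPUD1), against 4.46%. Over all 35116 promoter entries the shares were 0.0769%, 0.0541% and 3.62%. A match is a description of the sequence, and binding was not measured.

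The stretches below run 5′ to 3′ on the gene's strand, all lie before the gene start, and show the motif in capitals. They were chosen to show each motif and its orientation, in CRELD2, the ER member called in the Detroit comparison, in other members of both groups, and in HERPUD1, which holds both kinds of motif. The positions are chr9:125241376-125241424 (minus strand) for HSPA5, chr22:49918539-49918587 (plus) for CRELD2, chr22:28800588-28800636 (minus) for XBP1, chr12:103930201-103930354 (plus) for HSP90B1, chr16:56931951-56932050 (plus) for HERPUD1 and chr11:119057259-119057405 (minus) for HYOU1. Those of the remaining stretches are chr22:21642099-21642139 (plus) for SDF2L1, chr7:97872454-97872491 (minus) for ASNS, chr15:40953247-40953284 (plus) for CHAC1 and chr7:30594830-30594867 (plus) for GARS1.
HSPA5: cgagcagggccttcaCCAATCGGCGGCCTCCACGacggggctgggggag
CRELD2: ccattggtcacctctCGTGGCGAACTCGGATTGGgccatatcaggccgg
XBP1: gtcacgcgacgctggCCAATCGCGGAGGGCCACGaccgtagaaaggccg
HSP90B1: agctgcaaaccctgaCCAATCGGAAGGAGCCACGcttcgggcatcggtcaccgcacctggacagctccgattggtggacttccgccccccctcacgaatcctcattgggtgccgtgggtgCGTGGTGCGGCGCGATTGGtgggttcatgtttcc
HERPUD1: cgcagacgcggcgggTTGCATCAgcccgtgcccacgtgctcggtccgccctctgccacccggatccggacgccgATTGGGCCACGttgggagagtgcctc
HYOU1: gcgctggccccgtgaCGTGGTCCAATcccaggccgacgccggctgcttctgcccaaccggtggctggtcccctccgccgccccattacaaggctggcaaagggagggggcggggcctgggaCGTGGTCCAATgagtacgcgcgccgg
SDF2L1: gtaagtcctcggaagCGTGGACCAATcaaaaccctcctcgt
ASNS: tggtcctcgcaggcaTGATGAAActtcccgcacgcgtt
CHAC1: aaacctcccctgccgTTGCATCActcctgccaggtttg
GARS1: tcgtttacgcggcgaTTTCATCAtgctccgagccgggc

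Several properties of the arrays bear on the members. The arrays labelled as the Detroit subline stood nearer to the Fadu parent (r = 0.961 between group means over 8992 genes, which are not independent) than to the Detroit parent (r = 0.881), so the Detroit values below compare groups as labelled. Array medians lay between 4.92 and 5.06. Of 6 squamous epithelial markers represented, 4 to 6 lay above the dim limit on each array, and CDH1 lay between 8.31 and 10.46. KRT14 lay at 3.90 to 11.52. Of 8 fibroblast markers 1 to 5 lay above it, of 5 endothelial markers 0 to 1 and of 6 leukocyte markers 2 to 4. LUM was at most 2.94, PTPRC at most 3.86 and LYZ at most 3.17, while COL1A2 reached 8.50 on Detroit parent replicate 1. COL1A1 (5.33 to 6.38), CD3D (5.09 to 6.12) and CD79A (4.97 to 5.61) lay above the dim limit on every array. For ACTB the 3 prime control probe set minus the 5 prime one, a measure that grows as RNA degrades, lay between -0.28 and 0.87 on the log2 scale.

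The ER chaperone group was highest on OECM1 invasion subline replicate 1 and on Detroit invasion subline replicate 2. After subtraction of each gene's mean over the 12 arrays, the median of its 17 tested members was 1.31 and 1.08 on these arrays. It was -0.43 on Detroit invasion subline replicate 1, -0.69 and -0.92 in the Detroit parent (replicate 1 first), and 0.32 on OECM1 invasion subline replicate 2. The OECM1 parent had 0.26 and 0.17, the Fadu invasion subline -0.12 and -0.32, and the Fadu parent -0.13 and -0.44. The same median over all genes tested lay between -0.06 and 0.06. Detroit invasion subline replicate 2 was the highest of the 12 arrays for 8 of 17 ER members and OECM1 invasion subline replicate 1 for 7, where 13.1% and 10.6% of all genes were highest on those arrays.

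The ATF4 group was highest on 1 array. Its 20 tested members had a median of 1.87 on Detroit invasion subline replicate 2, against -0.41 on replicate 1 of that subline. All 20 lay above their own mean there, and for 16 of them it was the highest of the 12 arrays. The next highest medians were 0.67 on OECM1 invasion subline replicate 1 and 0.34 on OECM1 parent replicate 2. OECM1 parent replicate 1 was at -0.49 and OECM1 invasion subline replicate 2 at 0.13, the Detroit parent at -0.08 and -0.33, and the 4 Fadu arrays between -0.50 and -0.19.

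**Figure D1:**
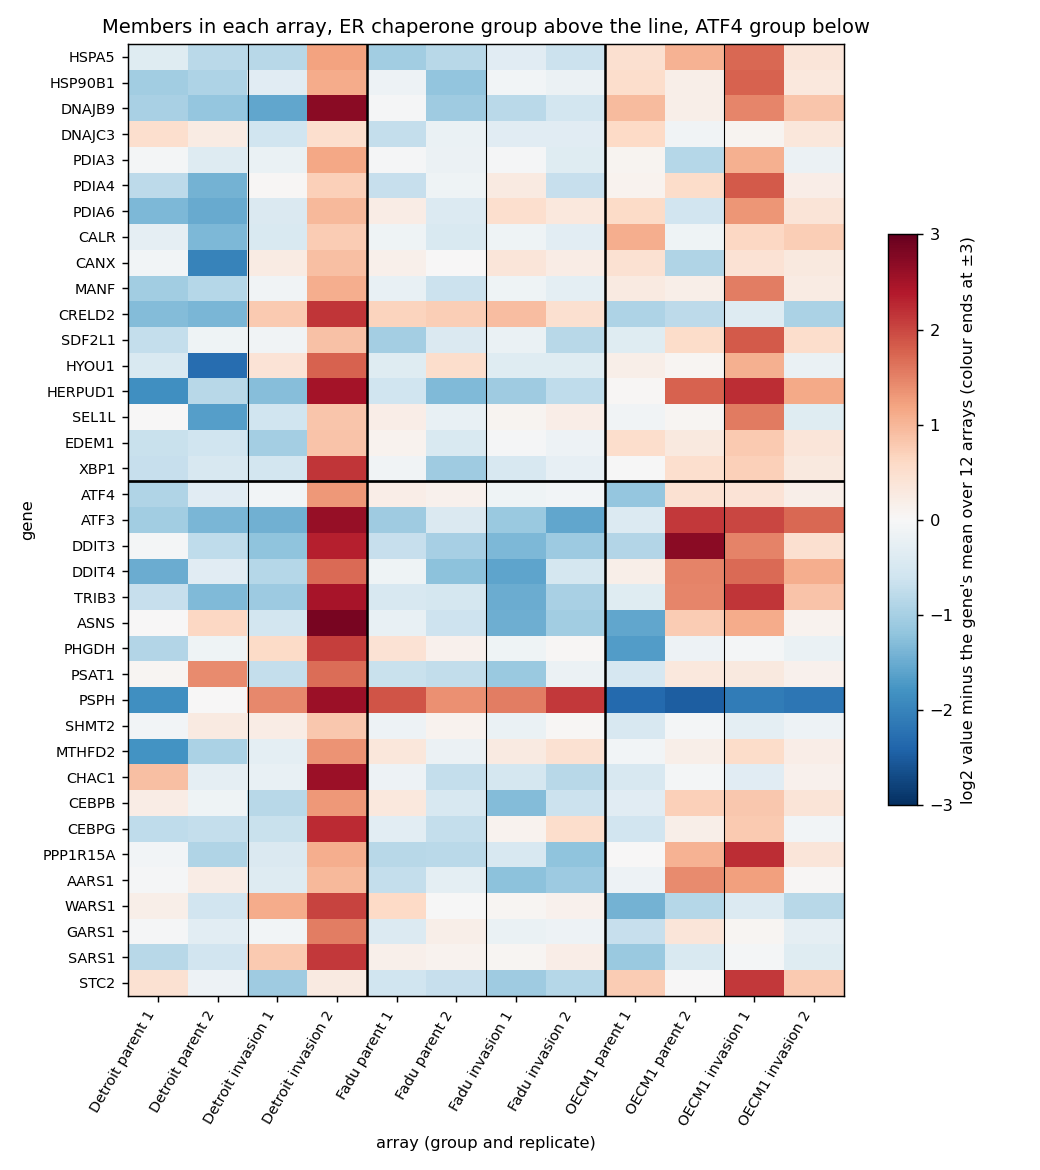
Log2 value of each of the 37 tested members on each of the 12 arrays, minus the gene's mean over the arrays, with red for higher and blue for lower values. Detroit invasion subline replicate 2 is red in all 17 ER rows and all 20 ATF4 rows, and PSPH is blue on all 4 OECM1 arrays.

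The duplicates of the Detroit invasion subline stood far apart in both groups. With the brightest probe set of each gene, replicate 2 exceeded replicate 1 for 17 of 17 ER members, by a median of 1.37 (log2). It did so for 20 of 20 ATF4 members, by a median of 1.63. The difference exceeded 1 for 14 and 18 of them, against 10.9% of all genes tested, whose median difference was -0.09. No test applies to a single pair of arrays.

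Within the ER group the difference ran from CANX (0.67) to HERPUD1 (3.77) among members above the dim limit on both arrays. Other CANX probe sets gave 0.35 and -0.54. The difference was 4.27 for DNAJB9 and 1.10 for DNAJC3, whose replicate 1 values were below that limit. DNAJB9, a J-domain cochaperone of BiP and a target of XBP1, was at 4.23 on replicate 1 and 8.50 on replicate 2, with 4.81 and 4.62 in the Detroit parent. Fadu subline cells had 4.97 and 5.24 and Fadu parent cells 5.76 and 4.73, while OECM1 subline cells had 7.25 and 6.61 and OECM1 parent cells 6.75 and 5.96. Replicate 2 thus lay above the other 11 arrays. HERPUD1, a factor of ER-associated degradation, was at 6.88 and 10.66, against 6.33 and 7.34 in its parent, with Fadu at 7.09 and 7.40 (subline) and 7.57 and 6.85 (parent). In OECM1 it was high on 3 of 4 arrays, at 10.38 and 9.29 in the subline and 8.19 and 9.93 in the parent. HSPA5, which encodes BiP, the main ER chaperone of the Hsp70 family, was at 10.38 and 12.42, with 10.85 and 10.42 in the Detroit parent. Its highest value was 12.95, on OECM1 invasion subline replicate 1, beside 11.58 on replicate 2 and 11.68 and 12.25 for OECM1 parent cells.

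In the ATF4 group the differences ran from SHMT2 (0.57) to ATF3 (4.04). ATF3, a bZIP factor, was at 4.03 and 8.06 in the Detroit invasion subline and at 4.41 and 4.10 in the Detroit parent. Its Fadu values were 4.34 and 3.89 in the subline and 4.40 and 5.03 in the parent, and its OECM1 values 7.46 and 7.18 in the subline and 5.05 and 7.58 in the parent. The Detroit parent, the Fadu subline, Detroit subline replicate 1 and Fadu parent replicate 1 lay below the dim limit, so its Detroit difference is taken against a signal near background. Low and high arrays were found within the Detroit subline and within the OECM1 parent. DDIT3, which encodes CHOP, was at 6.22 and 9.76 in the Detroit invasion subline, 7.36 and 6.65 in its parent, 6.06 and 6.33 in the Fadu subline and 6.73 and 6.41 in the parent of the latter. In OECM1 it was at 8.89 and 7.90 in the subline and at 6.54 and 10.11 in the parent, which held the highest value of the 12 arrays. TRIB3, a pseudokinase that damps the ATF4 response, was at 6.96 and 10.53, a difference of 11.9-fold between duplicates, and at 7.35 and 6.73 in the Detroit parent. Fadu had 6.56 and 7.08 (subline) and 7.57 and 7.51 (parent), and OECM1 10.19 and 8.91 (subline) and 7.69 and 9.52 (parent). OECM1 parent replicate 1 was thus the low OECM1 array for ATF3, DDIT3 and TRIB3 alike. ASNS, the asparagine synthetase, was at 8.20 and 11.60 (Detroit parent 8.78 and 9.38, OECM1 subline 9.86 and 8.85, OECM1 parent 7.20 and 9.53). CEBPG, a bZIP partner of ATF4, was at 5.59 and 8.50 (Detroit parent 5.50 and 5.54, OECM1 subline 7.05 and 6.19, OECM1 parent 5.69 and 6.45). SHMT2, a mitochondrial enzyme of serine and glycine metabolism, differed least, at 10.04 and 10.61.

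OECM1 duplicates also differed, with the groups apart. In the OECM1 parent, replicate 2 exceeded replicate 1 for 18 of 20 ATF4 members (median 1.04, over 1 for 11), against 3.80% of all genes over 1, but for 7 of 17 ER members (median -0.12). The 23 further ER folding, transport and degradation genes listed below had a median of -1.14 in that pair, with 1 higher on replicate 2 and 14 lower by more than 1, against 11.2% of all genes. In the OECM1 invasion subline the median of replicate 2 minus replicate 1 was -1.09 in the ER group and -0.39 in the ATF4 group, with 2 members of each group higher on replicate 2. The medians for the Detroit parent and both Fadu groups lay between -0.32 and 0.20 in either group of genes. In the Detroit parent, however, 4 of 17 ER members were lower on replicate 2 by more than 1, against 3.93% of all genes. These were CANX (-1.92), HYOU1 (-1.83), SEL1L (-1.65) and CALR (-1.08), while 1 ER member was higher by more than 1.

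Other measures moved with these duplicates. In the Detroit invasion subline the ACTB difference was -0.28 on replicate 1 and 0.80 on replicate 2, the array with the higher members. In the OECM1 parent it was 0.87 on replicate 1 and 0.04 on replicate 2, so there the array with the higher ATF4 group had the lower ratio. All 18 G2 and mitosis genes examined were lower on Detroit invasion subline replicate 2 than on replicate 1, with a median difference of -3.16. That list differed by a median of -0.17 in the OECM1 parent. The 9 cytosolic heat shock genes, which answer misfolding outside the ER, differed by a median of -0.18 in the Detroit subline and -0.81 in the OECM1 parent. In the OECM1 invasion subline, where the ER group was lower on replicate 2, the heat shock list differed by a median of 0.88 (9 of 9 higher on replicate 2), the G2 and mitosis list by 0.63 (16 of 18 higher), and ACTB was 0.06 on replicate 1 and 0.63 on replicate 2. The part of cell cycle state, RNA quality or culture state in the members' differences was not tested.

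**Figure D2:**
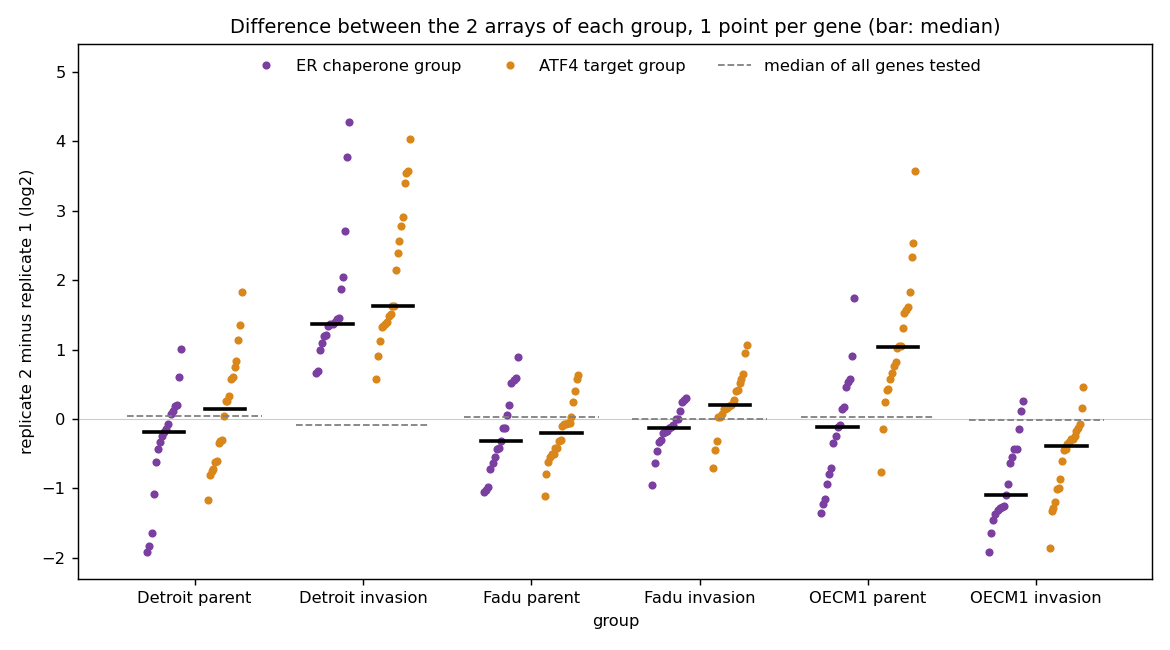
Replicate 2 minus replicate 1 on the log2 scale for each tested member (points) in each of the 6 groups, with the median of each group of genes (black bar) and of all genes tested (dashed line). In the Detroit invasion subline all points lie above 0, with medians of 1.37 and 1.63.

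With the Detroit subline as labelled set against the Detroit parent, 1 ER member and 3 ATF4 members rose and none fell. They were CRELD2, PSPH, SARS1 and WARS1, 4 of 37 members tested, where 3.28% of all genes were called in either direction and 1.51% as higher. The fitted log2 fold change was positive for 16 of 17 ER members (median 1.38, -0.43 to 2.80) and for 18 of 20 ATF4 members (median 1.11, -0.55 to 2.91), against 48.6% of all genes, whose median was -0.01. Each subline array lay differently against the parent mean. On replicate 1 the ER median was 0.32 above it, with 5 of 17 members over 1, and the ATF4 median was 0.060, with 5 of 20 over 1. On replicate 2 these medians were 1.95 and 2.38, with 16 of 17 and 16 of 20 over 1, against 5.98% and 12.2% of all genes on the respective arrays. Beside these, the G2 and mitosis list had a median of -1.71 in this comparison, positive in 0 of 18, and the cytosolic heat shock list -0.91, positive in 1 of 9. After subtraction of each gene's mean over all arrays, the G2 and mitosis median was 0.20 on subline replicate 1 and -2.96 on replicate 2. The Detroit parent arrays were at -0.02 and 0.51, so the low value came from subline replicate 2. Of 6 squamous markers tested, KRT14 (6.47, adjusted p = 0.000203) and DSG3 (3.22, adjusted p = 0.0239, limma) were called higher. EPCAM was lower (-1.38, adjusted p = 0.175, limma), and the median of the 6 was 0.50, positive in 5. The part of these lists and markers in the members' changes was not tested.

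CRELD2, an ER-resident protein of the ATF6 branch, was the ER member called. It was at 9.99 and 11.36 in the Detroit subline and at 7.92 and 7.84 in the parent, so the groups did not overlap. The mean was 10.68 ± 0.968 (SD, n = 2) against 7.88 ± 0.0503, a 6.95-fold increase (log2 fold change 2.80, SE 0.427, adjusted p = 0.00525, limma). Fadu stood at 10.15 and 9.69 (subline) and 9.89 and 9.95 (parent), and OECM1 at 8.82 and 8.27 (subline) and 8.29 and 8.44 (parent), so neither of those lines separated. Its call held with any 1 of the 12 arrays left out, and fell short with the 4 Detroit arrays fitted alone (adjusted p = 0.161, limma).

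Of the ER members that did not pass, 3 had the smallest p. HYOU1, a large Hsp70-like chaperone of the ER, was at 9.52 and 10.89 against 8.67 and 6.84 (2.45 on the log2 scale, SE 0.652, adjusted p = 0.0707, limma) and at 10.19 and 8.92 against 9.31 and 9.19 in OECM1. PDIA6, a protein disulfide isomerase, was at 9.48 and 10.88 against 8.55 and 8.40 (1.71, adjusted p = 0.114), and its 3 other probe sets gave 1.77 to 1.91. MANF, a secreted protein of the ER lumen that is released under stress, was at 9.17 and 10.36 against 8.23 and 8.42 (1.44, adjusted p = 0.140), and at 9.16 and 8.98 against 9.06 and 8.65 in Fadu. In these 3 genes both subline arrays lay above both parent arrays. That held for 8 of 17 ER members and 7 of 20 ATF4 members, against 19.9% of all genes, and the reverse held for 0 members.

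The ATF4 calls were PSPH, SARS1 and WARS1. PSPH, the phosphatase of the last step of serine synthesis, was at 7.11 and 8.24 in the Detroit subline and at 3.84 and 5.68 in the parent, which is 7.52-fold (a log2 change of 2.91 with SE 0.535, adjusted p = 0.0142 in limma). Its first Detroit parent value lies below the dim limit, and a second, dimmer PSPH probe set gave 0.64. Fadu had 7.22 and 7.80 (subline) and 7.56 and 7.05 (parent), so Detroit subline replicate 1 lay within the Fadu range. OECM1 lay below the dim limit, at 3.58 and 3.51 (subline) and 3.35 and 3.21 (parent). SARS1, the seryl-tRNA synthetase, was at 10.23 and 11.55 against 8.60 and 8.86, or 4.49-fold (2.17, SE 0.420, adjusted p = 0.0185), with 9.51 to 9.65 over the 4 Fadu arrays. WARS1, the tryptophanyl-tRNA synthetase, which interferon also induces, was at 9.78 and 10.69 against 8.83 and 8.08, or 3.43-fold (1.78, SE 0.426, adjusted p = 0.0483). In Fadu it was at 8.72 and 8.79 in the subline and 9.26 and 8.64 in the parent. For all 3 genes both subline arrays lay above both parent arrays, with replicate 2 the higher of the pair. MTHFD2, a mitochondrial folate enzyme, was at 8.91 and 10.54 against 7.41 and 8.25 (1.90, SE 0.497, adjusted p = 0.0683) and did not pass. Elsewhere it lay between 9.03 and 9.75, so the Detroit parent held its lowest values. PHGDH, the first enzyme of serine synthesis, was at 8.84 and 10.32 against 7.38 and 8.12 (1.83, adjusted p = 0.115), while PSAT1, the enzyme between them, was at 7.60 and 9.99 against 8.37 and 9.73 (-0.25). AARS1 and GARS1, the synthetases for alanine and glycine, had changes of 0.19 and 0.91.

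The transcription factors at the head of these responses did not pass. XBP1 was at 6.72 and 9.44 against 6.60 and 6.80 (log2 fold change 1.38, adjusted p = 0.373, limma), and ATF4 at 9.99 and 11.38 against 9.17 and 9.74 (1.23, adjusted p = 0.283). For XBP1 replicate 1 lay between the parent arrays, and an array of this design does not separate its spliced from its unspliced form. ATF4 lay above both parent values on both arrays, and it is controlled mostly at translation, which was not measured. Of the remaining ER members, PDIA4, CANX, HSP90B1 and SDF2L1 had both subline arrays above both parent arrays, with changes of 0.81 to 1.62. CALR, PDIA3, SEL1L and EDEM1 overlapped, at 0.55 to 0.96, and DNAJC3, which encodes an inhibitor of PERK, was the single negative ER value (-0.43). Its value on subline replicate 1 (4.33) lay below the dim limit. The feedback genes DDIT4, an inhibitor of mTORC1, PPP1R15A, the phosphatase subunit that reverses eIF2 phosphorylation, and CHAC1 overlapped too, at 0.82 to 1.33.

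The calls depended on single arrays. With Detroit invasion subline replicate 2 left out PSPH missed the threshold (adjusted p = 0.0699, limma), as it did with Detroit parent replicate 1 left out (adjusted p = 0.0875) and with the mean of its 2 probe sets (adjusted p = 0.148). SARS1 missed it when that subline array or either Detroit parent array, replicate 1 or 2, was left out (adjusted p = 0.0699, 0.112 and 0.0586), and with the replicate number as a block (adjusted p = 0.0578). WARS1 missed it with any array but Detroit invasion subline replicate 1 left out (adjusted p = 0.0527 to 0.219), and with the replicate block, array weights, median centring, the ACTB covariate or no dim limit (0.0518 to 0.180). With the 4 Detroit arrays fitted alone none of the 4 was called (adjusted p = 0.161 to 0.299). When Detroit invasion subline replicate 2 was dropped, only CRELD2 remained of the 37 members (2.32% of all genes), and the ER and ATF4 medians were 0.32 and 0.060. Without replicate 1, so that replicate 2 stood alone and was taken to vary like the other groups, 22 of 37 members were called, all higher, 10 in the ER group and 12 in the ATF4 group, where 10.2% of all genes were called. The ER calls were HSPA5, HSP90B1, DNAJB9, PDIA6, MANF, CRELD2, HYOU1, HERPUD1, EDEM1 and XBP1, and the ATF4 calls ATF4, ATF3, DDIT4, TRIB3, PHGDH, PSPH, MTHFD2, CHAC1, CEBPG, WARS1, GARS1 and SARS1. Without Detroit parent replicate 1 the calls were CANX, CRELD2 and HYOU1 (1.42% of all genes), and without Detroit parent replicate 2 CRELD2 and PSPH (2.12%). Leaving out any of the 8 Fadu and OECM1 arrays left 3 calls.

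**Figure D3:**
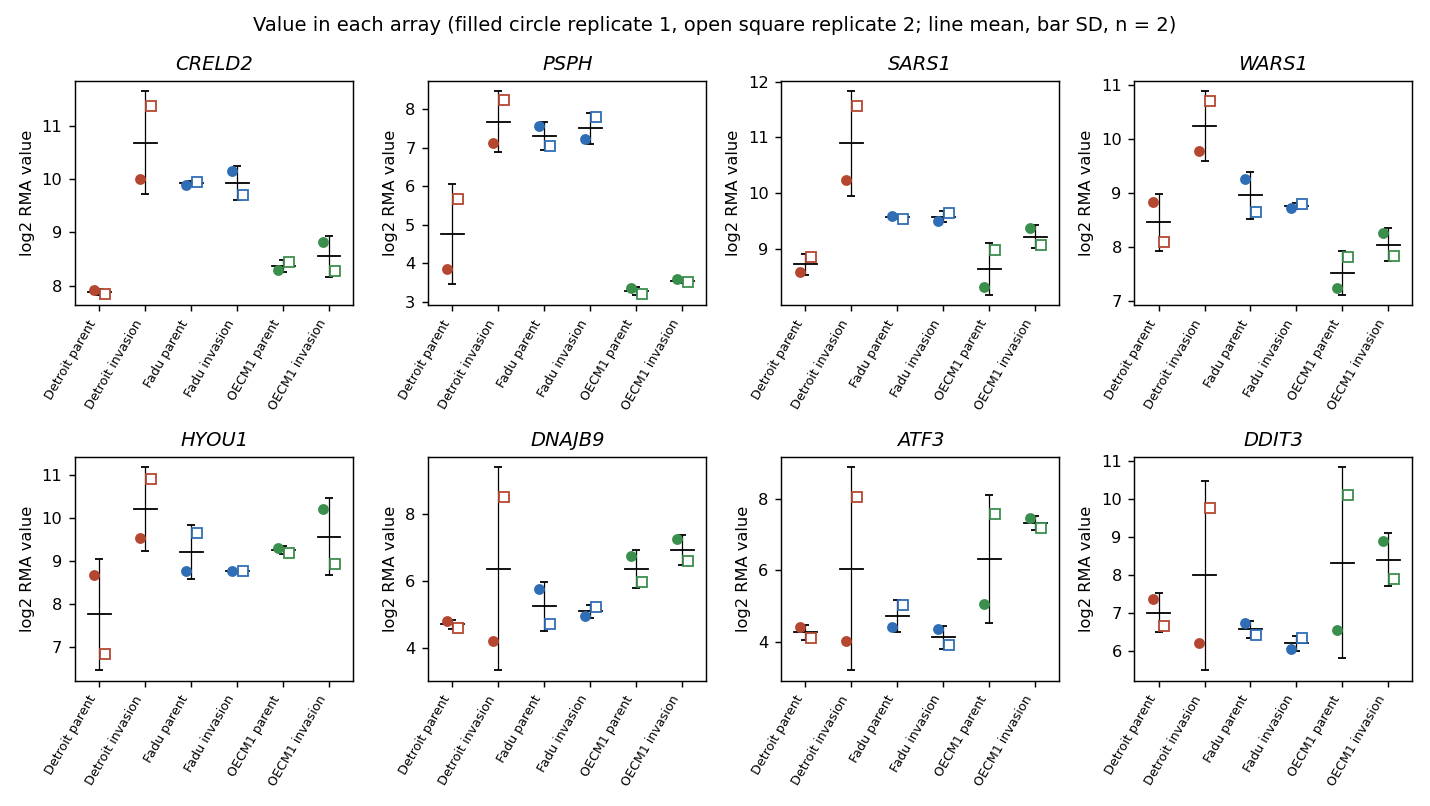
Log2 RMA value on each array for the 4 members called in the Detroit comparison, for HYOU1, and for DNAJB9, ATF3 and DDIT3, whose duplicates lay far apart. Filled circles are replicate 1 and open squares replicate 2, horizontal lines are group means and bars the SD of 2 arrays. CRELD2 and SARS1 show both Detroit subline arrays above both Detroit parent arrays, while DNAJB9 and ATF3 have 1 low and 1 high array in that subline.

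Because these arrays resembled the Fadu parent, they were also set against it. The subline arrays are shared with the comparison above. No member was called (0% of all genes), and at an unadjusted p under 0.05 there were 0 ER and 3 ATF4 members by limma, against 3.90% of all genes. The fitted difference was positive for 17 of 17 ER members (median 0.78) and 20 of 20 ATF4 members (median 1.13), against 51.7% of all genes. For the members called against the Detroit parent it was 0.76 (CRELD2), 0.37 (PSPH), 1.32 (SARS1) and 1.28 (WARS1). The PSPH arrays overlapped those of the Fadu parent. Beside these, the G2 and mitosis list had a median of -1.61, positive in 0 of 18, with 5 at an unadjusted p under 0.05 by limma, and its part was not tested. Its centred median was 0.20 on subline replicate 1 and -2.96 on replicate 2, with 0.09 and 0.23 in the Fadu parent. Without Detroit invasion subline replicate 1, 8 members were called higher, 4 in each group, against 2.74% of all genes in either direction. They were HSPA5, DNAJB9, HERPUD1 and XBP1, the factor that drives many ER chaperones, and ATF3, CEBPG, SARS1 and CHAC1, an enzyme that degrades glutathione. Without replicate 2 no member was called, again with 0% of all genes.

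In OECM1 most fitted changes were positive and none passed. The fitted log2 fold change was positive for 16 of 17 ER members (median 0.58, -0.04 to 1.09) and 20 of 20 ATF4 members (median 0.54, 0.01 to 1.07), against 50.9% of all genes. Of all genes 0% were called, and 0 members had an unadjusted p under 0.05 by limma, against 3.34% of all genes. The arrays overlapped in every ER member, and in 5 of 20 ATF4 members both subline arrays lay above both parent arrays, against 13.5% of all genes.

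SDF2L1, a partner of ER Hsp40 cochaperones, was at 9.94 and 8.62 in OECM1 subline cells and at 7.74 and 8.65 in their parent (log2 fold change 1.09, SE 0.539). Its Detroit values were 7.98 and 8.98 against 7.37 and 7.97, and its Fadu values 7.89 and 7.26 against 7.07 and 7.66. PDIA6 was at 11.22 and 10.28 against 10.48 and 9.32, PDIA3 at 11.07 and 9.82 against 10.08 and 9.14, and MANF at 10.81 and 9.53 against 9.54 and 9.45. PDIA3, a disulfide isomerase that acts with calnexin, was at 9.81 and 11.15 against 9.94 and 9.61 in Detroit and at 9.97 and 9.64 against 9.96 and 9.83 in Fadu. In these genes replicate 1 of the subline was the high array and replicate 2 lay within the parent range. STC2, a secreted glycoprotein induced by ER stress, was at 9.14 and 7.82 against 7.79 and 7.03 (1.07, SE 0.527), with 1.20 in a second probe set. Its probe sets parted in the other lines, at -0.55 and 0.16 in Detroit and -0.32 and -1.17 in Fadu. PHGDH was at 8.19 and 8.06 against 6.58 and 8.10, so its change of 0.79 came from OECM1 parent replicate 1. SARS1 was at 9.37 and 9.08 against 8.32 and 8.98 (0.57), and WARS1 at 8.26 and 7.83 against 7.24 and 7.81 (0.52). Each adjusted p was 1.00 in limma, and the ER median was 0.044 without OECM1 invasion subline replicate 1, while the ATF4 median was -0.07 without OECM1 parent replicate 1.

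In Fadu no member passed. None was called, where 0.0222% of all genes were, and none had an unadjusted p under 0.05 by limma, against 2.02% of all genes. The ER group had a median of 0.15 (-0.46 to 0.54), positive in 14 of 17, which was 0.0061 without Fadu parent replicate 2 and 0.34 without Fadu parent replicate 1. For the ATF4 group the median was -0.26 (-0.89 to 0.84), positive in 5 of 20, against 46.8% of all genes, and ran from -0.34 to -0.19 with single arrays left out. Both subline arrays lay below both parent arrays in 9 of 20 ATF4 members, against 1618 of 8992 genes, and above them in 1.

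PDIA6 had the smallest ER p in Fadu, at 10.41 and 10.23 in the subline and 10.12 and 9.50 in the parent (log2 fold change 0.51). HSP90B1, the ER paralogue of Hsp90, was at 9.41 and 9.32 against 9.35 and 8.30 (0.54), HSPA5 at 10.88 and 10.57 against 10.18 and 10.39 (0.44), and HYOU1 at 8.75 and 8.75 against 8.76 and 9.65 (-0.46). In the other lines HSP90B1 was at 9.15 and 10.60 against 8.45 and 8.57 (Detroit) and 11.27 and 9.81 against 10.01 and 9.66 (OECM1). The HSP90B1 and HYOU1 values rest on Fadu parent replicate 2, without which they were 0.02 and -0.01. In the ATF4 group CEBPB, a bZIP factor, was at 7.82 and 8.47 against 9.43 and 8.64 (-0.89, SE 0.632), ASNS at 7.30 and 7.71 against 8.54 and 8.13 (-0.83), and AARS1 at 7.95 and 8.09 against 8.48 and 8.89 (-0.66). Detroit and OECM1 values of CEBPB were 8.28 and 10.43 against 9.34 and 8.99 and 9.94 and 9.50 against 8.78 and 9.83. Those of AARS1 were 8.80 and 10.16 against 9.16 and 9.42 and 10.42 and 9.22 against 9.03 and 10.60, so both genes overlapped in those lines. CEBPG was the ATF4 member with both Fadu subline arrays above both parent arrays, at 6.38 and 6.81 against 5.96 and 5.55 (0.84). Each adjusted p was 1.00 in limma.

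**Figure D4:**
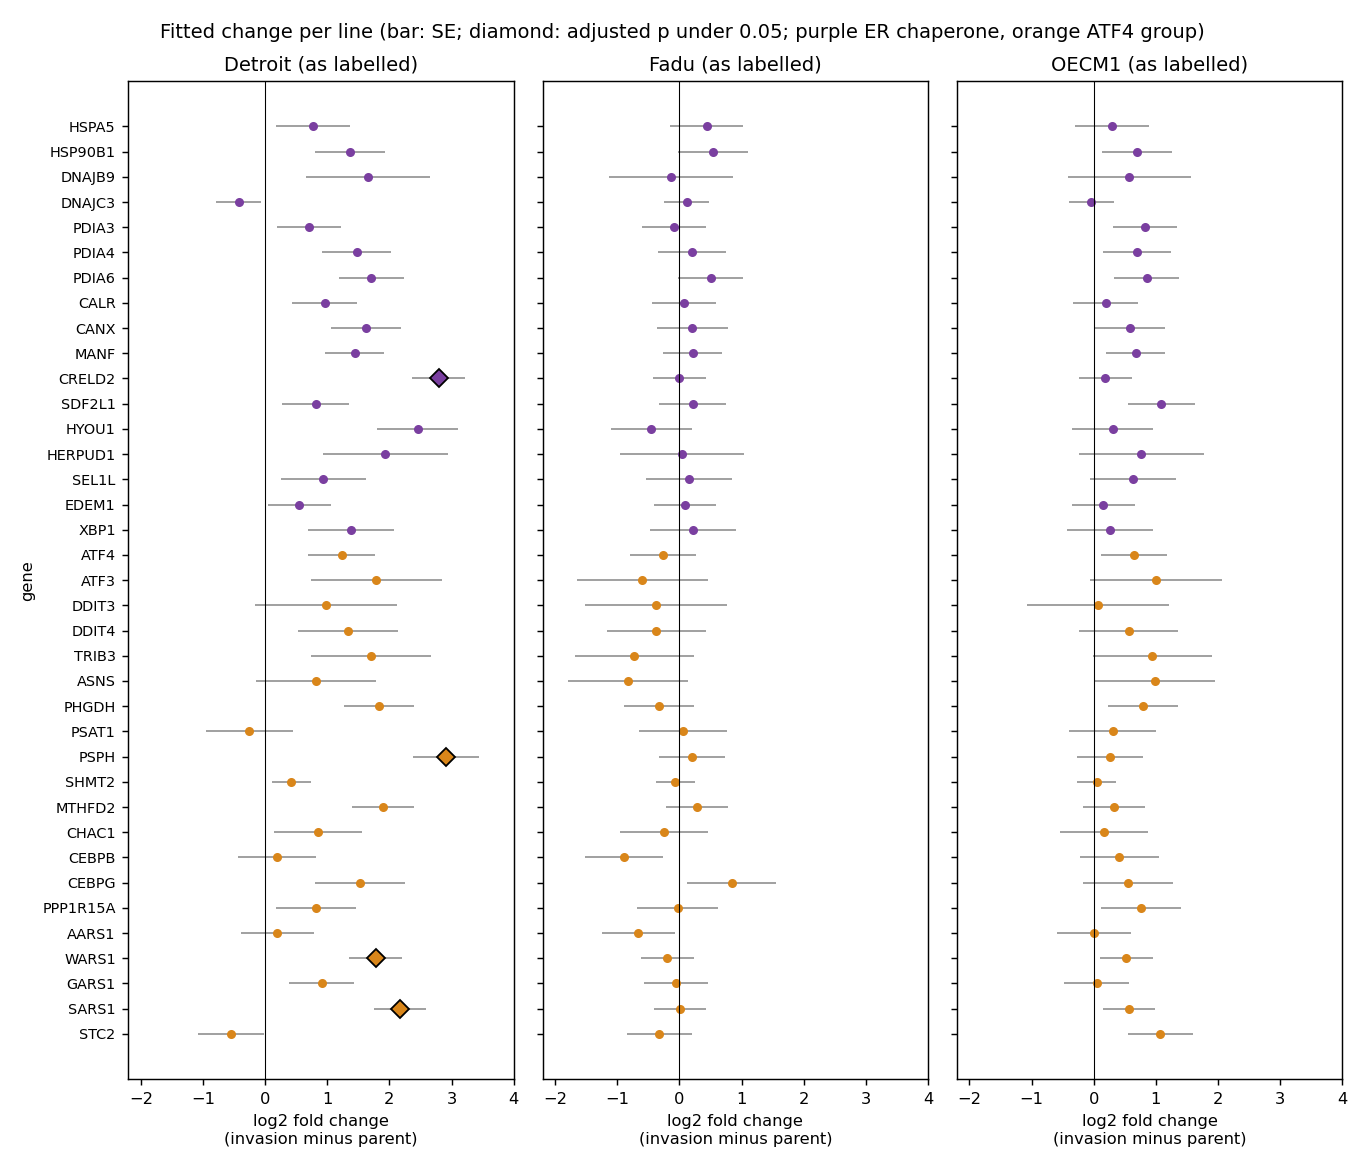
Fitted log2 fold change of invasion subline over parent for each tested member in each line, with bars for the SE. Diamonds mark the 4 members with an adjusted p under 0.05, all in the Detroit comparison, and the Fadu points of the ATF4 group lie mostly left of 0.

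The lines share no arrays, so their fitted changes can be set side by side as labelled. The Detroit-labelled subline stood nearer to the Fadu parent (r = 0.961) than to the Detroit parent (r = 0.881). The part of a line difference in its change was not tested. All 3 changes were positive in 13 of 17 ER members and in 4 of 20 ATF4 members, against 13.3% of all genes. The 13 include Fadu values near 0, such as CRELD2 (0.001), HERPUD1 (0.041), CALR (0.073) and EDEM1 (0.090). An F test for a difference between the 3 line effects called 0 of 37 members, where 0.701% of all genes were called, and 2 ER and 3 ATF4 members had an unadjusted p under 0.05 by limma, against 8.67% of all genes. CRELD2 had the smallest p among them (unadjusted p = 0.00114, adjusted p = 0.103, limma), with changes of 2.80 in Detroit, 0.00 in Fadu and 0.18 in OECM1. PSPH followed with 2.91, 0.20 and 0.26 (adjusted p = 0.257). Dropping Detroit invasion subline replicate 1 gave 3 calls, DNAJB9, CRELD2 and SARS1 (2.8% of all genes), and dropping Detroit parent replicate 2 gave PSPH (0.734%). With the 3 line pairs, as labelled, taken as replicates, an average effect called 0 members and 0% of all genes. At an unadjusted p under 0.05 by limma there were 7 ER members and 1 ATF4 member, against 4.30% of all genes. These included PDIA6 (average log2 fold change 1.02, SE 0.279), HSP90B1 (0.87), HSPA5 (0.50) and CEBPG (0.97), each with adjusted p = 0.839 in limma.

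Baseline levels separated the parents in 2 members, a share close to that of all genes. An F test over the 3 parents called PSPH (adjusted p = 0.00390) and CRELD2 (adjusted p = 0.0350, limma), 2 of 37 members, where 5.29% of all genes were called. PSPH was the single call with any 1 of the 10 arrays outside the Detroit subline left out (2.32% to 6.45% of all genes). HSPA5 and MTHFD2 joined both when either Detroit subline array was left out (8.13% and 8.12%). Parent values of PSPH were 7.56 and 7.05 for Fadu, 3.84 and 5.68 for Detroit and 3.35 and 3.21 for OECM1, where all 4 OECM1 arrays lay below the dim limit. The Fadu and OECM1 parents differed by 16.3-fold (log2 difference -4.02, OECM1 minus Fadu, SE 0.535, adjusted p = 0.00281, where 2.94% of all genes were called), a size that rests on a low signal in OECM1. A further PSPH call separated Fadu from Detroit (2.54, adjusted p = 0.0315, 2.58% of all genes), whereas the OECM1 minus Detroit difference of -1.48 did not pass (adjusted p = 0.181, 3.4% of all genes). CRELD2 had parent values of 9.89 and 9.95 for Fadu, 8.29 and 8.44 for OECM1 and 7.92 and 7.84 for Detroit, and differed between Fadu and Detroit (2.04, SE 0.427, adjusted p = 0.0312). The Fadu against Detroit calls of both genes ended without either Detroit parent or either Fadu parent array in CRELD2 (adjusted p = 0.113 to 0.201), and without Detroit parent replicate 1 or either Fadu parent array in PSPH (adjusted p = 0.104 to 0.240). In CRELD2 they also ended without either Fadu subline array (adjusted p = 0.0553 and 0.0546), and in PSPH without any OECM1 array (adjusted p = 0.0527 to 0.0591) and with the mean of both probe sets (adjusted p = 0.328). These comparisons share parent arrays with each other and with the comparisons of sublines and parents. The ER group had a median OECM1 minus Detroit difference of 1.17, positive in 15 of 17, with 0 called and 8 at an unadjusted p under 0.05 by limma, against 16.3% of all genes. The ATF4 group had a median of 0.18, positive in 12 of 20.

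Other genes of the pathways, listed by their roles, were examined too. Of 9 stress sensors and processing proteases, 23 further genes of ER folding, transport and degradation and 26 further ATF4-linked genes, 0 were called by limma between subline and parent in any line. At an unadjusted p under 0.05 there were 1, 2 and 3 of these lists in Detroit, against 16.1% of all genes, 0 of each in Fadu, against 2.02%, and 0, 2 and 0 in OECM1, against 3.34%. The Detroit shares were below that of all genes. KDELR3, a receptor that returns proteins to the ER, had the smallest p in Detroit and in OECM1, with log2 fold changes of 1.61 (adjusted p = 0.127) and 1.95 (adjusted p = 0.647, limma). Between parents, MBTPS2, a protease that activates ATF6, was higher in OECM1 than in Detroit (2.34, adjusted p = 0.00906) and Fadu (1.71, adjusted p = 0.0462). CREB3L2, an ER-anchored transcription factor, was higher in OECM1 by 3.04 (adjusted p = 0.0289) and 2.77 (adjusted p = 0.0480, limma). In each of these 2 comparisons the calls were 1 of 9, 1 of 23 and 0 of 26 genes of the 3 lists. Of all genes 3.4% (OECM1 against Detroit) and 2.94% (OECM1 against Fadu) were called. Between duplicates of the Detroit subline, 23 of the 26 ATF4-linked genes were higher on replicate 2 (median 1.47, over 1 for 19). Of the 23 further ER genes 18 were higher there (median 0.47, over 1 for 3). The difference exceeded 1 in 10.9% of all genes, close to the 13.0% of the further ER genes.

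The promoter matches can be set beside the values as a description. On Detroit invasion subline replicate 2 against replicate 1, the 10 tested ER members with an ERSE or ERSE-II match had a median difference of 1.39 (0.67 to 3.77), and the 6 without a match 1.32 (0.69 to 4.27, the upper end being DNAJB9), so the ranges overlapped almost wholly. In the ATF4 group the 6 members with the TGATGNAA core had a median of 2.84 (1.36 to 4.04, the upper end being ATF3) and the 12 without 1.57 (0.91 to 3.58), again with overlapping ranges. DDIT3 and TRIB3, without a match in these windows, differed by 3.54 and 3.58. Between subline and parent the order in the ATF4 group was the reverse. The median log2 fold change in Detroit was 0.88 for members with the core and 1.28 for those without. In OECM1 these medians were 0.36 and 0.57. In the ER group the median was higher with a match in Detroit and lower with a match in OECM1.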

How the data were processed

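RNA of 12 samples was measured on Affymetrix arrays with a biotin label, per the labels' protocols. The deposited values are log2 expression values per probe set, made by the authors with RMA. The submitters' processing notes also name Partek, version 7. RMA compresses low values and sets arrays to one distribution. There were 0 unused value columns. Arrays have no read depth, and their number limits the precision.

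Genes were named through the platform annotation from probe sets with 1 symbol. Those with at least 2 arrays above the 40th percentile of all values (4.52) were tested, 8992 in all. Using limma (3.58.1, R 4.3.3), 1 mean per group was fitted over the 12 arrays, with an intensity trend and a spread shared by the 6 groups. Calls are Benjamini-Hochberg adjusted p-values under 0.05 among all 8992 genes. They measure the spread between arrays, which may be technical. The average over lines fitted the 6 group means with a term for the line. Members and lists were chosen with earlier results of these data known, so no set test or list-wise p was used. Genes described most fully were those called, the 4 of smallest p in each group of genes and line, and the 5 with the largest duplicate difference. For some of them the values of another line are given as a range or left out. Further members were named for their roles. Alternatives changed the dim limit, scaling, trend, array weights, arrays fitted, replicate block, probe sets, the ACTB covariate, and single arrays.

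Same-numbered arrays of a line did not deviate together (r = -0.19 in Detroit, -0.38 in Fadu and -0.40 in OECM1 over 8992 genes), so the numbers were not taken to pair samples.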

Additional observations from a re-analysis of the deposited data

How the results depend on the processing

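Apart from single arrays left out, the settings tried kept the direction of each group median and of each called change, but not every call. The count of members called in the Detroit comparison was 4. It was 0 with the 4 Detroit arrays alone, 2 with a replicate block, and 3 to 5 otherwise. The block changed no call for Fadu, OECM1, the difference between lines or the average, at 0 members each. With replicate numbers crossed between subline and parent, a setting chosen after seeing the data, 5 members were called in Detroit and 0 in Fadu and OECM1. Members called among the parents numbered 2, 1 with the mean over all probe sets of a gene, 3 with the 6 parent arrays alone and 2 in the other settings. With single arrays left out, calls ranged from 1 to 22 in Detroit, from 0 to 8 for the Detroit-labelled subline against the Fadu parent, from 0 to 3 for the difference between lines and from 1 to 4 for the parents. The Detroit medians then ranged from 0.32 to 1.95 for the ER group and from 0.060 to 2.38 for the ATF4 group, and the OECM1 ER median from 0.044 to 0.98. The OECM1 ATF4 median ranged from -0.07 to 0.92 and was the only group median to change sign. In Fadu the ER median ranged from 0.0061 to 0.34 and the ATF4 median from -0.34 to -0.19. The cause was not tested. Signals near background limit the size of the PSPH, DNAJB9, DNAJC3 and ATF3 differences.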
